A study of Mus musculus with 12 samples.

Results

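The hippocampus of mice given both the mVEGF-C vector and the antibody mAducanumab (mVEGF-C+mAdu, mice 10, 11 and 12) was compared with that of mice given the control vector and the control antibody (eGFP+mIgG, mice 1, 2 and 3). These 6 libraries of the 12 in the series were chosen by their group names, and all 14881 genes of the deposited count table entered the comparison. The other 6 libraries, 3 with mVEGF-C+mIgG and 3 with eGFP+mAdu, were used for the estimate of the spread and for the interaction of vector and antibody. All 12 mice were male, carried APPswe, a transgene of the amyloid precursor protein with the Swedish mutation, and were 22 to 26 months old. An AAV1 vector, 5 µL of it, was injected into the cisterna magna, the fluid space below the cerebellum, and its CMV promoter drove mVEGF-C or eGFP. Each mouse also received weekly intraperitoneal injections of mAducanumab or of control mIgG at 40 mg/kg. The eGFP+mIgG mice were thus not untreated: they carried the transgene, a viral vector and an antibody too. The CMV promoter is active in many cell types, and which cells took up the vector was not given in the sources used here.

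VEGF-C is a secreted growth factor that acts on lymphatic endothelial cells through the receptor encoded by Flt4, and the lymphatic vessels it acts on near the brain lie in the meninges, not in the hippocampus. Aducanumab is an antibody that binds aggregated amyloid beta, and antibody bound to plaques is recognised by Fc receptors on microglia and by the complement component C1q. Around plaques, microglia and astrocytes take on reactive states marked by complement, interferon-response and antigen presentation genes. The series asks whether the response to such an antibody depends on meningeal lymphatic function.

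RNA was sequenced from 1 hippocampus per library, per the series description, while the source label names the brain meninges. Markers of hippocampal fields were abundant in all 6 libraries: the median of 4 CA1 markers ran from 61.9 to 70.6 CPM (counts per 1000000 reads, scaled by edgeR's TMM factors) and that of 4 dentate gyrus markers from 48.3 to 59.3 CPM. The median of 4 meningeal fibroblast markers ran from 4.99 to 9.51 CPM. Library totals ran from 23213612 to 29295266 reads. In each group, 1 library lay between the other 2 far more often than these did. Mouse 12 held the middle value in 86.1% of 1193 genes that varied beyond counting noise within mVEGF-C+mAdu, and mouse 3 in 82.5% of 1579 such genes within eGFP+mIgG. Mice 9 and 6 did so in 79.1% and 81.9% of the varying genes of mVEGF-C+mIgG and eGFP+mAdu. For the other 8 libraries this share was 5.53% to 12.9%. Whether these 4 libraries share material with the others was not tested, and p-values that count them as separate mice would then be too small. For that reason a list median printed below is also given without mice 3, 6, 9 and 12. Mouse 5 of eGFP+mAdu had 1342 CPM of App and mouse 6 had 3716 CPM, while the other 10 mice had 4721 to 5507 CPM. Mice 5 and 6 are not in the compared groups but enter the estimate of the spread.

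In mVEGF-C+mAdu mice, 177 genes were higher and 147 lower than in eGFP+mIgG mice in a quasi-likelihood test of edgeR at a Benjamini-Hochberg adjusted p under 0.05. The 324 genes were 2.18% of those tested, 1.19% higher and 0.988% lower. Most of the changes were small: 246 of the 324 genes changed by under 0.5 on the log2 scale and 14 by at least 1. The median size was 0.22 among the higher genes and 0.47 among the lower ones, and the smallest change called was 0.14. The median over all genes tested was -0.0036, with 7279 positive and 7602 negative changes, the background for the sign counts of the lists below. The lower genes included complement, reactive astrocyte, choroid plexus and vascular genes, and the higher ones included immediate early genes, chaperones and splicing factors. In 322 of the 324 genes the 3 mVEGF-C+mAdu mice and the 3 eGFP+mIgG mice did not overlap. Over all genes, all 3 mVEGF-C+mAdu mice lay above all 3 controls in 13.9% and below them in 13.4%.

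**Figure D1:**
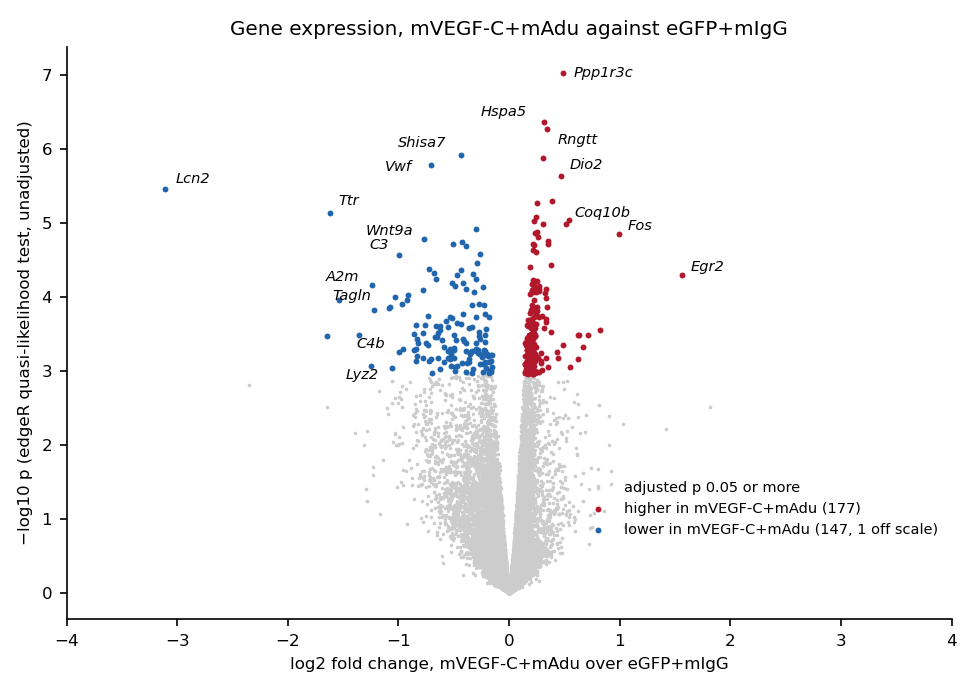
Change of each gene in mVEGF-C+mAdu over eGFP+mIgG (x axis, log2) against its unadjusted p (y axis, -log10, edgeR quasi-likelihood test), with 1 point per gene. Red points are the 177 genes called higher and blue points the 147 called lower, which reach further from 0 than the red ones do. ENSMUSG00000045999, at -9.13, lies off the scale.

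The count of calls rested on few libraries. It was 43 without mouse 10, 12 without mouse 12, 21 without mouse 1 and 56 without mouse 3, and 243 and 397 without mice 11 and 2. Without mice 3, 6, 9 and 12 it was 2, both lower, with 1275 genes at an unadjusted p under 0.05 against 3029 with all libraries. All 324 genes kept their direction in each of these fits. In 322 of them the groups did not overlap, so leaving out mice could hardly turn the direction, and this says little about stability. The median size of their changes was 0.27 without mice 3, 6, 9 and 12 and 0.26 with them, and the median SE was 0.0812 without them and 0.0551 with them. The 2 genes still called were ENSMUSG00000045999 and Gm42418. The statements on single genes below are to be read with this: unless stated otherwise, a gene called with all libraries was not called without those 4.

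Immediate early genes, which neurons switch on within minutes of activity, had the highest median of the lists with at least 4 genes measured. Of 26 measured, 21 had a positive change, 8 rose and 0 fell, with a median log2 change of 0.29 (0.27 without mice 3, 6, 9 and 12). Of all 14881 genes, 7279 had a positive change and 1.19% were called higher. Fos, a subunit of the transcription factor AP-1, had 23.2, 36.4 and 27.8 CPM in mVEGF-C+mAdu mice, against 11.4, 18.7 and 14.3 CPM in eGFP+mIgG mice. All 3 treated mice lay above the highest control mouse, and the mice of each group spread widely. The log2 change of Fos was 0.99 ± 0.16 (SE; edgeR quasi-likelihood test, adjusted p = 0.00995). Egr2, a zinc finger transcription factor, had 3.73, 9.90 and 6.76 CPM in mVEGF-C+mAdu mice, against 1.63, 3.11 and 2.24 CPM in eGFP+mIgG mice. The lowest treated mouse, mouse 10, lay just above the highest control, and the log2 change was 1.57 ± 0.28 (SE; edgeR quasi-likelihood test, adjusted p = 0.0173). Homer1, a scaffold protein of the synapse, had 207, 244 and 217 CPM in mVEGF-C+mAdu mice, against 167, 183 and 175 CPM in eGFP+mIgG mice. Its groups were apart, with a log2 change of 0.35 ± 0.06 (SE; edgeR quasi-likelihood test, adjusted p = 0.0101).

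Fosb, a second Fos family member, had 4.19, 7.52 and 5.76 CPM in mVEGF-C+mAdu mice, against 2.76, 3.81 and 3.37 CPM in eGFP+mIgG mice. The orphan nuclear receptors Nr4a1 and Nr4a3 and the zinc finger factor Klf4 rose by 0.67, 0.30 and 0.62 on the log2 scale, and none of their groups overlapped. These 3 genes and Arc lie beyond the rule for named genes and are a choice made with their values known, to account for the 8 calls. Arc, a regulator of synaptic receptor uptake, had 166, 234 and 199 CPM in mVEGF-C+mAdu mice, against 106, 172 and 132 CPM in eGFP+mIgG mice. Arc overlapped between the groups, and its log2 change was 0.55 ± 0.13 (SE; edgeR quasi-likelihood test, adjusted p = 0.045). Npas4, an immediate early factor of neurons alone, did not follow these genes. It had 5.65, 6.75 and 6.24 CPM in mVEGF-C+mAdu mice, against 8.46, 5.76 and 7.02 CPM in eGFP+mIgG mice, and did not pass (log2 change -0.20 ± 0.14 SE, edgeR quasi-likelihood test, adjusted p = 0.432). Npas4 was higher in mVEGF-C+mIgG than in eGFP+mIgG mice, by 0.88 on the log2 scale (edgeR quasi-likelihood test, adjusted p = 0.0133). The mean of the 26 genes' log2 CPM, centred on all 12 libraries, was -0.01, 0.33 and 0.12 in mVEGF-C+mAdu mice 10, 11 and 12, against -0.34, 0.01 and -0.20 in eGFP+mIgG mice 1, 2 and 3, so the lowest treated and the highest control mouse overlapped. No immediate early gene was called without mouse 12 or without mouse 1, and Fos, Egr2 and Homer1 kept their calls without mice 10 and 11.

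Many immediate early genes are switched on through serum response factor, which binds the CArG box, or through CREB, which binds the CRE (TGACGTCA). Promoters of the 8 genes that rose were searched on both strands for these motifs, in windows from RefSeq (GRCm38.p6) that run from 250 bases before a transcription start to 50 after it. Arc had no entry. Of the other 7 genes, Egr2 held a CArG box in 4 of its 5 windows, and Fos, Fosb, Nr4a1, Nr4a3, Homer1 and Klf4 held neither motif there. Sites outside these windows and variants of the motifs were not searched for, so these genes may hold such sites. Of 32851 promoters of that length in the table, 1.63% held a CArG box and 1.79% a CRE. The 250 bases before 1 of the Egr2 starts are shown because they hold a match. They lie at chr10:67537316-67537565 on the + strand, and capitals mark the CArG box, whose first base is 72 bases before the start.
Egr2: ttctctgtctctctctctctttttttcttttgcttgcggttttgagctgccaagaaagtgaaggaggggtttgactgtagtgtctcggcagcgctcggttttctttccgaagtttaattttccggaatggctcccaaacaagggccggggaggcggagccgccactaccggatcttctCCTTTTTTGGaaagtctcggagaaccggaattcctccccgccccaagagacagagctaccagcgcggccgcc

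Chaperones and factors of the unfolded protein response, by which cells meet a load of misfolded protein, had small changes, most of them positive. Of 20 measured, 19 had a positive change, 3 rose and 0 fell, with a median log2 change of 0.11 (0.13 without mice 3, 6, 9 and 12). Among all 14881 genes, 7279 changes were positive and 1.19% were called higher. Hspa5, the main chaperone of the endoplasmic reticulum, had 292, 314 and 310.2 CPM in mVEGF-C+mAdu mice, against 250.2, 239 and 249 CPM in eGFP+mIgG mice. The lowest treated mouse lay clearly above the highest control. Hspa5 averaged 305 ± 11.9 CPM in mVEGF-C+mAdu mice and 246 ± 6.36 CPM in eGFP+mIgG mice (SD, n = 3 each). The log2 change was 0.31 ± 0.04 (SE; edgeR quasi-likelihood test, adjusted p = 0.00199). It was called in 6 of 6 fits that left out 1 compared mouse, and also in the fit with choroid plexus as a covariate. Xbp1, a transcription factor that the unfolded protein response activates by splicing its mRNA, had 86.0, 95.4 and 89.9 CPM in mVEGF-C+mAdu mice, against 76.8, 75.8 and 81.0 CPM in eGFP+mIgG mice. The cytosolic chaperone Hsp90aa1 had 1475, 1344 and 1434 CPM in mVEGF-C+mAdu mice, against 1259, 1189 and 1288 CPM in eGFP+mIgG mice. Neither overlapped between groups, and their log2 changes were 0.21 ± 0.05 and 0.19 ± 0.04 (SE). Xbp1 and Hsp90aa1 were each called in 1 of 6 fits that left out 1 mouse.

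The unfolded protein response acts on target promoters through the endoplasmic reticulum stress element (ERSE, searched on both strands as CCAAT, 9 bases of any kind and CCACG). Hspa5 held it in its 1 window and Xbp1 did not, while Hsp90aa1 had no entry. Of the 32851 promoters, 0.119% held this motif. The 250 bases before the Hspa5 start, at chr2:34771840-34772089 on the + strand of GRCm38.p6 from RefSeq, are shown because they hold the match. Capitals mark the ERSE, whose first base is 65 bases before the start. These matches are descriptions of sequence, and whether a factor binds there was not measured.
Hspa5: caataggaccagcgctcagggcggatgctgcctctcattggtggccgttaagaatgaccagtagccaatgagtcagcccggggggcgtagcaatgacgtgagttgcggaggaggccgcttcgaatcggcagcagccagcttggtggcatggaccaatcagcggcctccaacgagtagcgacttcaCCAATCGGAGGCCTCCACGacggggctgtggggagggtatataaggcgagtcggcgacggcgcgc

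The gene with the smallest p among those that rose was Ppp1r3c on chromosome 19 (36731731 to 36736653, - strand, GRCm38). It encodes a subunit that brings protein phosphatase to glycogen and promotes glycogen storage, which in brain is held mainly by astrocytes. Ppp1r3c had 91.5, 93.7 and 95.0 CPM in mVEGF-C+mAdu mice, against 60.9, 71.9 and 66.8 CPM in eGFP+mIgG mice. The treated mice lay within 4 CPM of each other and well above every control. The mean was 93.4 ± 1.78 CPM in mVEGF-C+mAdu, against 66.5 ± 5.49 CPM in eGFP+mIgG (SD, n = 3 each). The log2 change was 0.49 ± 0.05 (SE; edgeR quasi-likelihood test, adjusted p = 0.00069). Dio2, the enzyme that turns thyroxine into active thyroid hormone and is made by astrocytes, had 67.4, 69.4 and 68.2 CPM in mVEGF-C+mAdu mice, against 43.8, 54.7 and 50.1 CPM in eGFP+mIgG mice. Its groups were also well apart, with a log2 change of 0.47 ± 0.06 (SE; edgeR quasi-likelihood test, adjusted p = 0.0042). Both genes were called in 6 of 6 fits that left out 1 mouse. Slco1c1, a thyroid hormone transporter of the blood-brain barrier chosen after its values were seen, rose by 0.32 ± 0.07 on the log2 scale (SE; edgeR quasi-likelihood test, adjusted p = 0.03). Among 16 measured astrocyte genes, Ppp1r3c rose and Aldh1l1, a folate enzyme, fell by 0.21, and the median was 0.02 (0.01 without mice 3, 6, 9 and 12).

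The other leading higher genes code for RNA processing, membrane traffic and synaptic proteins. Rngtt, the enzyme that caps mRNA, had 44.4, 45.2 and 45.1 CPM in mVEGF-C+mAdu mice, against 34.4, 35.5 and 36.1 CPM in eGFP+mIgG mice. Washc4, a subunit of the WASH complex of endosomes, had 83.0, 84.8 and 82.9 CPM in mVEGF-C+mAdu mice, against 66.8, 66.0 and 70.3 CPM in eGFP+mIgG mice. Arl5b, a small GTPase of the Golgi, had 49.7, 54.2 and 49.9 CPM in mVEGF-C+mAdu mice, against 38.6, 40.1 and 39.2 CPM in eGFP+mIgG mice. All 3 genes kept the groups apart and were called in 6 of 6 fits that left out 1 mouse. Sacm1l, a lipid phosphatase of the endoplasmic reticulum and Golgi, was called in 6 of 6 such fits too, with a mean of 133 ± 1.81 CPM in mVEGF-C+mAdu mice and 112 ± 3.82 CPM in eGFP+mIgG mice (SD, n = 3 each). Arl5b and Rbm12b2 each overlap a gene on the other strand in the annotation, and whether counting used the strand is not given in the sources used here.

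Coq10b, which acts in coenzyme Q function in mitochondria, had 26.8, 29.3 and 27.6 CPM in mVEGF-C+mAdu mice, against 18.7, 20.9 and 19.2 CPM in eGFP+mIgG mice. It rose by 0.51 on the log2 scale, and Rbm12b2, which codes for an RNA-binding motif protein, by 0.54. Rab8b and Syt4, which act in vesicle traffic and release, rose by 0.24 and 0.25 on the log2 scale. Ppp4r2, a regulatory subunit of protein phosphatase, and Larp4, a protein that binds mRNA, rose by 0.23 and 0.24. Splicing regulators moved in both directions: of 25 measured, 14 had a positive change and the median was 0.02 (0.02 without mice 3, 6, 9 and 12). Srsf10, Tra2a and Srsf7 rose by 0.31, 0.25 and 0.21, while Cirbp, an RNA-binding protein induced by cold, fell by 0.22. The median of this list was -0.04 after each library was corrected for its trend with GC content, described below, and -0.0068 without mouse 2. Single genes of other lists also rose. They were Cyp51, an enzyme of cholesterol synthesis (0.24, 1 of 19 in its list), Nr1d2, a repressor of the circadian clock (0.26, 1 of 17), Htr1a, a serotonin receptor (0.20, 1 of 24) and Dlx6os1, an RNA of inhibitory neurons (0.24, 1 of 16).

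**Figure D2:**
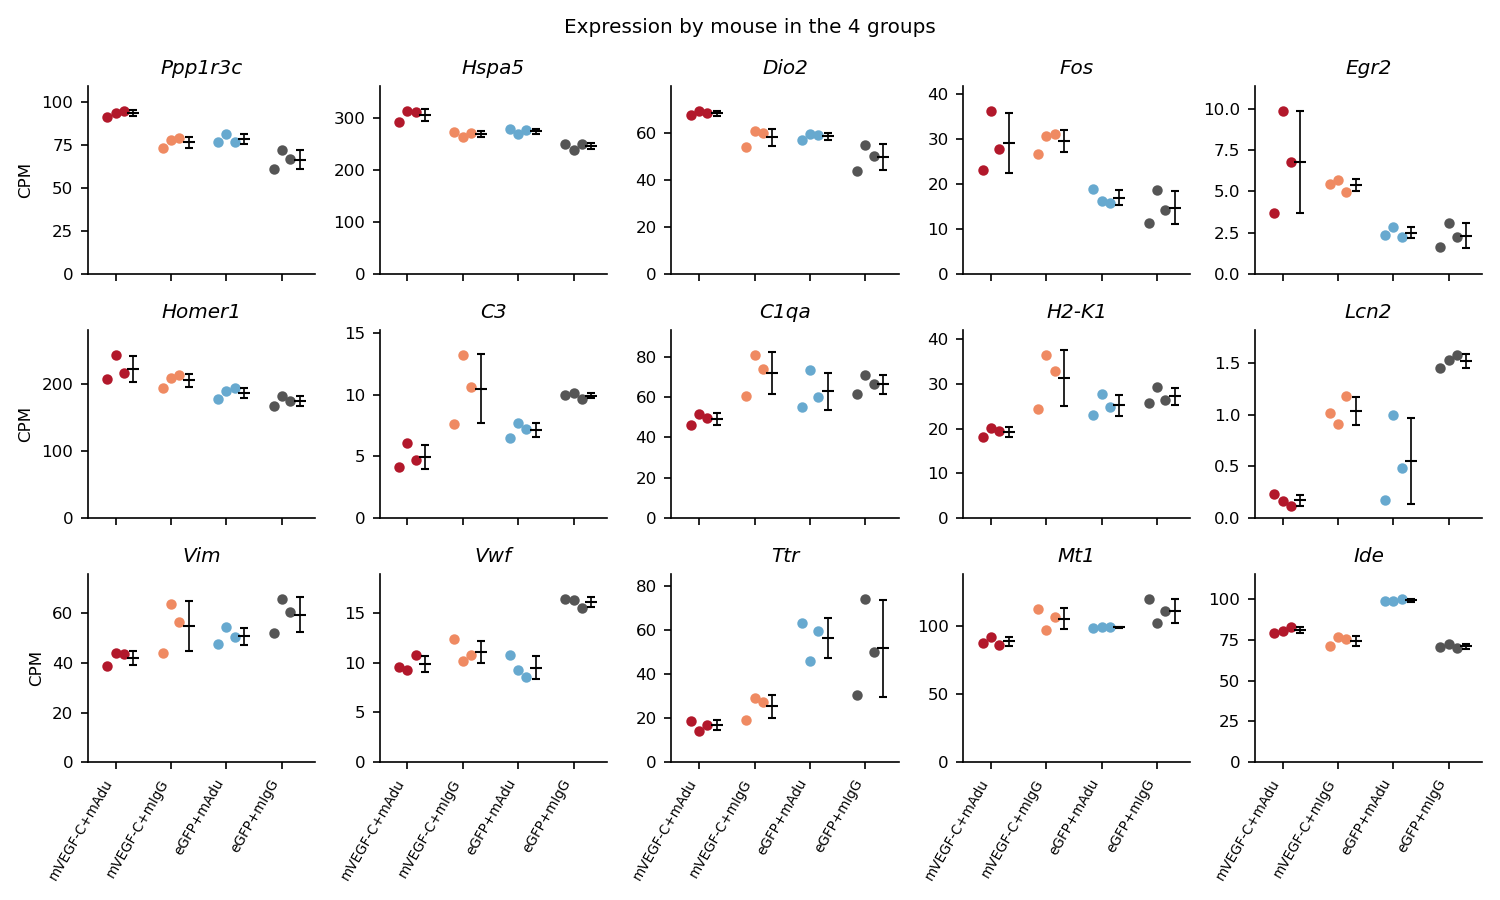
CPM of 15 genes (y axes) in each mouse of the 4 groups (x axis), with 1 point per mouse and the mean ± SD of 3 mice beside them. In Ppp1r3c, Hspa5 and Dio2 the means of both single-treatment groups lie between those of mVEGF-C+mAdu and eGFP+mIgG, in Fos and Egr2 the mVEGF-C+mIgG mice lie near mVEGF-C+mAdu, and Ide is highest in eGFP+mAdu.

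Complement genes, which code for the proteins that tag targets for removal, fell most often among the lists. Of 15 measured, 14 had a negative change, 7 fell and 0 rose, with a median log2 change of -0.31 (-0.32 without mice 3, 6, 9 and 12), against 0.988% of all genes called lower. The mean centred log2 CPM of the list was -0.35, -0.20 and -0.18 in mVEGF-C+mAdu mice, against 0.11, 0.12 and 0.10 in eGFP+mIgG mice, with no overlap. The summed level was 964 to 1020 CPM in mVEGF-C+mAdu mice and 1170 to 1250 CPM in eGFP+mIgG mice. All 3 chains of C1q, the recognition molecule of the classical pathway, fell. C1qa had 46.1, 51.5 and 49.7 CPM in mVEGF-C+mAdu mice, against 61.6, 70.9 and 66.3 CPM in eGFP+mIgG mice. C1qb had 34.3, 35.5 and 33.9 CPM in mVEGF-C+mAdu mice, against 43.4, 49.6 and 47.8 CPM in eGFP+mIgG mice. C1qc had 30.8, 36.0 and 34.0 CPM in mVEGF-C+mAdu mice, against 43.6, 48.3 and 42.6 CPM in eGFP+mIgG mice. Their groups were apart and their log2 changes alike, at -0.43 ± 0.10, -0.44 ± 0.09 and -0.41 ± 0.08 (SE; edgeR quasi-likelihood test, adjusted p = 0.042, 0.0293 and 0.0261).

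C3, the component on which all complement pathways converge, had 4.15, 6.06 and 4.67 CPM in mVEGF-C+mAdu mice, against 9.99, 10.1 and 9.67 CPM in eGFP+mIgG mice. The control mice lay close together and above every treated mouse, and the log2 change was -0.9998 ± 0.17 (SE; edgeR quasi-likelihood test, adjusted p = 0.0117). C4b, which is cleaved to form the classical pathway's convertase, had 119, 147 and 130 CPM in mVEGF-C+mAdu mice, against 231, 299 and 262 CPM in eGFP+mIgG mice. It also fell by 0.9999 on the log2 scale, with an SE of 0.23 and an adjusted p of 0.038 by edgeR's quasi-likelihood test. C4b is nearly identical to C4a, which is in the same list, so reads may be split between them. Serping1, which inhibits C1, fell by 0.70 and was named with its values known, beyond the rule for named genes. The call of C1qa, C1qb and C4b was the least steady, holding in 0, 1 and 0 of 6 fits that left out 1 mouse. With the GC correction, 14 of 15 genes kept a negative change and 2 calls remained, C3 among them, with a median of -0.34.

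Reactive astrocyte genes had a median log2 change of -0.45 (-0.42 without mice 3, 6, 9 and 12). Of 22 measured, 21 had a negative change, 6 fell and 0 rose, and 2 of the 6, C4b and Serping1, are also in the complement list. Among all 14881 genes, 7602 changes were negative and 0.988% were called lower. Lcn2, a secreted iron-binding protein of inflamed astrocytes, had 0.230, 0.162 and 0.121 CPM in mVEGF-C+mAdu mice, against 1.45, 1.53 and 1.58 CPM in eGFP+mIgG mice. After ENSMUSG00000045999, described below, this was the largest fall among the named genes, at -3.11 ± 0.44 on the log2 scale (SE; edgeR quasi-likelihood test, adjusted p = 0.0057), and it rests on few reads per library in the treated mice. Vim, an intermediate filament protein, had 38.7, 43.8 and 43.5 CPM in mVEGF-C+mAdu mice, against 52.2, 66.0 and 60.5 CPM in eGFP+mIgG mice. Its groups were apart, with a log2 change of -0.50 ± 0.11 (SE). Cp, the copper-binding ferroxidase ceruloplasmin, and Aspg, an asparaginase, fell by 0.48 and 0.75. Gfap, the filament protein by which reactive astrocytes are usually recognised, had 326, 315 and 326 CPM in mVEGF-C+mAdu mice, against 347, 475 and 398 CPM in eGFP+mIgG mice. Gfap was lower in every treated mouse than in any control but did not pass (log2 change -0.34 ± 0.11 SE, edgeR quasi-likelihood test, adjusted p = 0.111). A2m, a protease inhibitor in no list and chosen after its values were seen, had 4.26, 5.01 and 4.95 CPM in mVEGF-C+mAdu mice, against 9.95, 13.5 and 10.4 CPM in eGFP+mIgG mice, a log2 change of -1.24 ± 0.23 (SE).

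Antigen presentation and interferon-response genes had negative medians and few calls. Of 17 antigen presentation genes measured, 17 had a negative change, 2 fell and 0 rose, and the median was -0.52 (-0.57 without mice 3, 6, 9 and 12). Of 25 interferon-response genes, 23 had a negative change, 2 fell and 0 rose, and the median was -0.47 (-0.53 without mice 3, 6, 9 and 12). Among all 14881 genes, 7602 changes were negative and 0.988% were called lower. H2-K1, a classical MHC class I heavy chain whose reads may be split with its close relatives, had 18.0, 20.2 and 19.4 CPM in mVEGF-C+mAdu mice, against 25.8, 29.2 and 26.4 CPM in eGFP+mIgG mice. Psmb9, a subunit of the immunoproteasome, had 1.23, 0.970 and 1.05 CPM in mVEGF-C+mAdu mice, against 2.14, 1.86 and 1.82 CPM in eGFP+mIgG mice. The groups of both were apart, with log2 changes of -0.50 ± 0.12 and -0.84 ± 0.20 (SE; edgeR quasi-likelihood test, adjusted p = 0.0395 and 0.0413). Ifitm3, a membrane protein that blocks viral entry, had 4.34, 4.61 and 4.23 CPM in mVEGF-C+mAdu mice, against 6.03, 7.39 and 7.23 CPM in eGFP+mIgG mice. Lgals3bp, a secreted glycoprotein, had 6.41, 5.94 and 7.69 CPM in mVEGF-C+mAdu mice, against 10.3, 10.3 and 10.8 CPM in eGFP+mIgG mice. Both kept the groups apart, with log2 changes of -0.64 and -0.65. H2-K1, Psmb9 and Ifitm3 were called in 0 of 6 fits that left out 1 mouse, and Lgals3bp in 1. With the GC correction none of the 4 was called by edgeR's quasi-likelihood test, and the medians of the lists were -0.46 and -0.51.

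Of 27 genes of disease-associated microglia, the state found around plaques, 24 had a negative change, 1 fell and 0 rose, with a median of -0.24 (-0.26 without mice 3, 6, 9 and 12). The gene that fell was Lyz2, a lysozyme with a close relative (Lyz1), with 10.5, 11.5 and 10.3 CPM in mVEGF-C+mAdu mice, against 17.6, 28.4 and 22.0 CPM in eGFP+mIgG mice. Its groups were apart, with a log2 change of -1.06 ± 0.26 (SE; edgeR quasi-likelihood test, adjusted p = 0.0459). Other defining genes of the state did not pass. Cst7 and Itgax had larger changes than Lyz2, on few reads in the treated mice, and Clec7a and Trem2 had smaller ones. Cst7, an inhibitor of lysosomal proteases, had 0.192, 0.202 and 0.242 CPM in mVEGF-C+mAdu mice, against 0.908, 1.53 and 0.929 CPM in eGFP+mIgG mice (log2 change -2.35 ± 0.61 SE, edgeR quasi-likelihood test, adjusted p = 0.0564). Itgax, an integrin of activated microglia, had 0.423, 0.445 and 0.604 CPM in mVEGF-C+mAdu mice, against 1.31, 1.77 and 1.58 CPM in eGFP+mIgG mice (log2 change -1.65 ± 0.47 SE, edgeR quasi-likelihood test, adjusted p = 0.0737). Clec7a, a receptor of the same state, and Trem2, the lipid receptor that the state requires, had log2 changes of -0.96 and -0.35 (edgeR quasi-likelihood test, adjusted p = 0.209 and 0.127). In all 4 genes the 3 mVEGF-C+mAdu mice lay below the 3 eGFP+mIgG mice. Of the 27 genes of the list, 16 were at an unadjusted p under 0.05 by edgeR, against 3029 of all 14881 genes.

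Homeostatic microglial genes, which resting microglia express, had a median of -0.09 (-0.08 without mice 3, 6, 9 and 12), with 12 of 15 negative and 0 called by edgeR's quasi-likelihood test or by DESeq2 (4 at an unadjusted p under 0.05, and 4 called by limma-voom). Of all 14881 genes, 3029 were at an unadjusted p under 0.05 by edgeR and 2660 were called by limma-voom. P2ry12, a purine receptor, had 51.9, 47.3 and 50.6 CPM in mVEGF-C+mAdu mice, against 44.5, 49.2 and 48.8 CPM in eGFP+mIgG mice. Tmem119 had 16.7, 19.8 and 20.3 CPM in mVEGF-C+mAdu mice, against 18.8, 22.97 and 22.2 CPM in eGFP+mIgG mice. Both overlapped between the groups (log2 changes 0.07 ± 0.05 and -0.17 ± 0.10 SE), and P2ry12 changed sign to -0.02 with the GC correction. The mean centred level of the homeostatic list was nevertheless -0.09 to -0.05 in mVEGF-C+mAdu mice, against -0.04 to -0.01 in eGFP+mIgG mice, without overlap. Whether the homeostatic and the disease-associated lists differ from each other was not tested. Among 19 Fc receptor and phagocytosis genes, 17 had a negative change, 0 were called by edgeR's quasi-likelihood test or by DESeq2 (9 at an unadjusted p under 0.05, and 5 called by limma-voom), and the median was -0.18 (-0.21 without mice 3, 6, 9 and 12). In whole tissue, fewer cells of a type and less RNA per cell cannot be told apart, here and in every list.

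**Figure D3:**
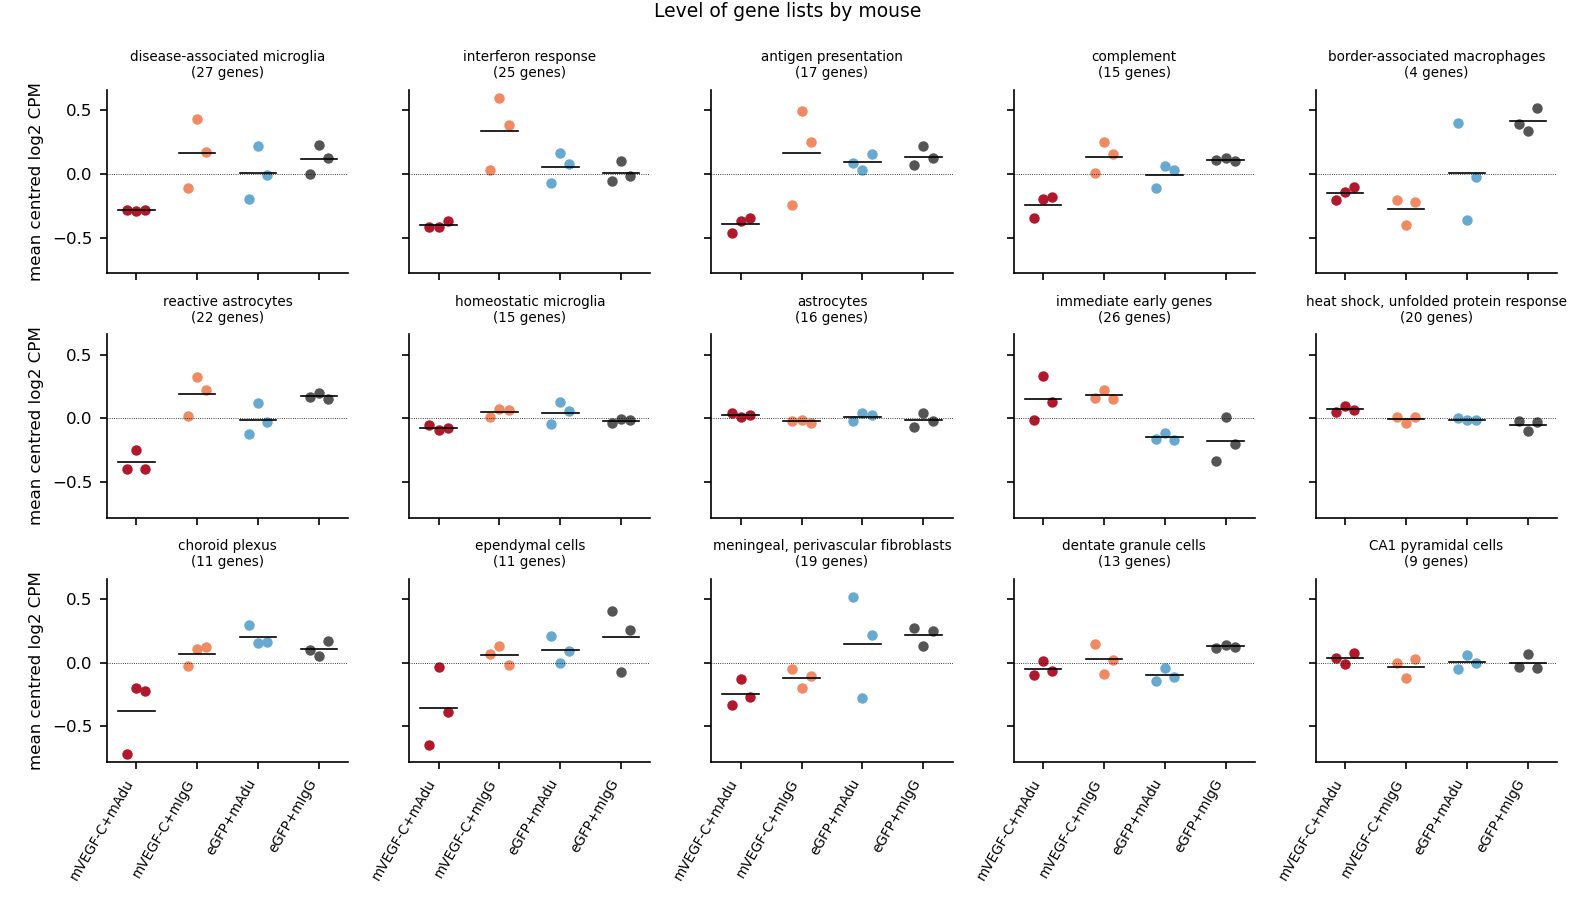
Mean log2 CPM of the genes of 15 lists, centred over all 12 libraries (y axis), in each mouse of the 4 groups (x axis), with a line at the mean of 3 mice. The interferon response list ran from -0.42 to -0.37 in mVEGF-C+mAdu mice and from -0.06 to 0.10 in eGFP+mIgG mice, and mouse 8 of mVEGF-C+mIgG was the highest at 0.59.

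Among genes of the cerebrospinal fluid borders, 1 of 11 choroid plexus, 2 of 11 ependymal, 1 of 19 fibroblast and 1 of 4 border-associated macrophage genes fell, and 0 rose. Ttr, the thyroxine carrier that choroid plexus makes in bulk, had 18.8, 14.3 and 16.8 CPM in mVEGF-C+mAdu mice, against 30.4, 74.2 and 50.1 CPM in eGFP+mIgG mice. All treated mice lay below the lowest control, and the controls differed by more than their own lowest value (log2 change -1.62 ± 0.25 SE, edgeR quasi-likelihood test, adjusted p = 0.00895). Ttr was the 1 gene of 11 choroid plexus genes that fell. The list's median was -0.35, -0.36 without mice 3, 6, 9 and 12 and -0.08 without mouse 10, whose mean centred level was -0.72 against -0.20 and -0.23 in mice 11 and 12 and 0.05 to 0.17 in eGFP+mIgG mice. Choroid plexus can be carried into a dissected hippocampus, and its summed level was 297 to 300.0 CPM in mVEGF-C+mAdu mice, against 306 to 386 CPM in eGFP+mIgG mice. Ttr is part of this sum. In 2 of the 11 genes all 3 treated mice lay below all 3 controls, against 13.4% of all genes. With the list's mean centred level as a covariate, 5 genes were called: Egr2, Fos, Hspa5 and Srsf10 higher and ENSMUSG00000045999 lower. In that fit 1071 genes were at an unadjusted p under 0.05 by edgeR. The level separated the 2 groups, so the covariate shares its values with the comparison. The SE of the 324 genes was larger (median 0.0911, against 0.0551 without the covariate), and their median size was 0.25 and 0.26. Estimates of single genes moved between settings. Over all alternatives C3 ran from -1.17 to -0.59 and Foxj1, an ependymal gene described below, from -0.74 to -0.11. How much of the lost calls goes with size and how much with the SE was not tested.

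All 11 measured ependymal genes had a negative change, with a median of -0.58 (-0.54 without mice 3, 6, 9 and 12), though the mean level of the list overlapped between the groups. Foxj1, the master factor of motile cilia, had 7.95, 12.2 and 9.30 CPM in mVEGF-C+mAdu mice, against 14.998, 13.2 and 14.97 CPM in eGFP+mIgG mice. Tekt1, a filament protein of cilia, had 2.27, 2.87 and 2.66 CPM in mVEGF-C+mAdu mice, against 4.32, 4.00 and 4.13 CPM in eGFP+mIgG mice. Both fell, by 0.55 and 0.68, and these were the 2 calls of the list. Of 19 meningeal and perivascular fibroblast genes, 19 had a negative change, Lama1, a laminin chain, fell (-0.54), and the median was -0.40 (-0.38 without mice 3, 6, 9 and 12). Among all 14881 genes, 7602 changes were negative and 0.988% were called lower. Of 4 measured border-associated macrophage genes, 4 had a negative change, with a median of -0.62 (-0.49 without mice 3, 6, 9 and 12). Stab1, a scavenger receptor, fell by 0.39, with 12.5, 13.8 and 14.1 CPM in mVEGF-C+mAdu mice against 18.2, 16.9 and 17.8 CPM in eGFP+mIgG mice. With the GC correction Foxj1, Lama1 and Stab1 were not called, and Tekt1 was. Foxj1, Tekt1 and Lama1 were each called in 2 of 6 fits that left out 1 mouse, and Stab1 in 1. The summed level of the 19 fibroblast genes was 156 to 163 CPM in mVEGF-C+mAdu mice and 181 to 218 CPM in eGFP+mIgG mice. The part that the share of these border tissues in each dissection plays in the glial lists above was not tested beyond the covariate for choroid plexus.

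Few vascular genes were called. Vwf, the clotting factor that blood endothelium stores, had 9.56, 9.22 and 10.8 CPM in mVEGF-C+mAdu mice, against 16.4, 16.3 and 15.5 CPM in eGFP+mIgG mice. Its groups were far apart for their spread, with a mean of 9.86 ± 0.825 CPM in mVEGF-C+mAdu mice and 16.1 ± 0.503 CPM in eGFP+mIgG mice (SD, n = 3 each), and a log2 change of -0.71 ± 0.09 (SE; edgeR quasi-likelihood test, adjusted p = 0.00343). Vwf was called in 6 of 6 fits that left out 1 mouse. It was the 1 call among 18 blood endothelial genes, whose median was -0.03 (-0.01 without mice 3, 6, 9 and 12). Cldn5, the tight junction protein of that endothelium, had 16.5, 15.1 and 17.6 CPM in mVEGF-C+mAdu mice, against 17.0, 16.2 and 16.9 CPM in eGFP+mIgG mice, and its sign varied between settings. Tagln, an actin-binding protein of smooth muscle, had 1.19, 1.17 and 1.01 CPM in mVEGF-C+mAdu mice, against 2.72, 1.67 and 2.68 CPM in eGFP+mIgG mice. Tagln fell by 1.09 and was the 1 call among 10 pericyte and smooth muscle genes, whose median was -0.12 (-0.17 without mice 3, 6, 9 and 12).

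Genes of the VEGF system itself had a median of -0.08 (-0.05 without mice 3, 6, 9 and 12) over 14 ligands and receptors, with 0 called by edgeR's quasi-likelihood test or by DESeq2 (2 at an unadjusted p under 0.05, and 2 called by limma-voom). Over all 14881 genes these last counts were 3029 and 2660. The mean centred level of the list was -0.0887 to -0.0005 in mVEGF-C+mAdu mice, against 0.0223 to 0.0725 in eGFP+mIgG mice, without overlap. Its summed level overlapped, at 422 to 437 CPM and 410 to 424 CPM. Vegfc had 2.65, 3.44 and 2.86 CPM in mVEGF-C+mAdu mice, against 3.45, 3.21 and 3.58 CPM in eGFP+mIgG mice. The groups overlapped, and the log2 change was -0.20 ± 0.17 (SE; edgeR quasi-likelihood test, adjusted p = 0.555). Whether the vector's transcript reached the hippocampus or would be counted at Vegfc was not tested. Flt4, the receptor of VEGF-C, had 1.31, 1.13 and 1.37 CPM in mVEGF-C+mAdu mice, against 1.53, 1.30 and 1.34 CPM in eGFP+mIgG mice. Its groups overlapped too, and of 5 measured lymphatic endothelial genes 0 were called by edgeR or DESeq2 (2 at an unadjusted p under 0.05, and 1 called by limma-voom), with a median of -0.14 (-0.14 without mice 3, 6, 9 and 12).

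**Figure D4:**
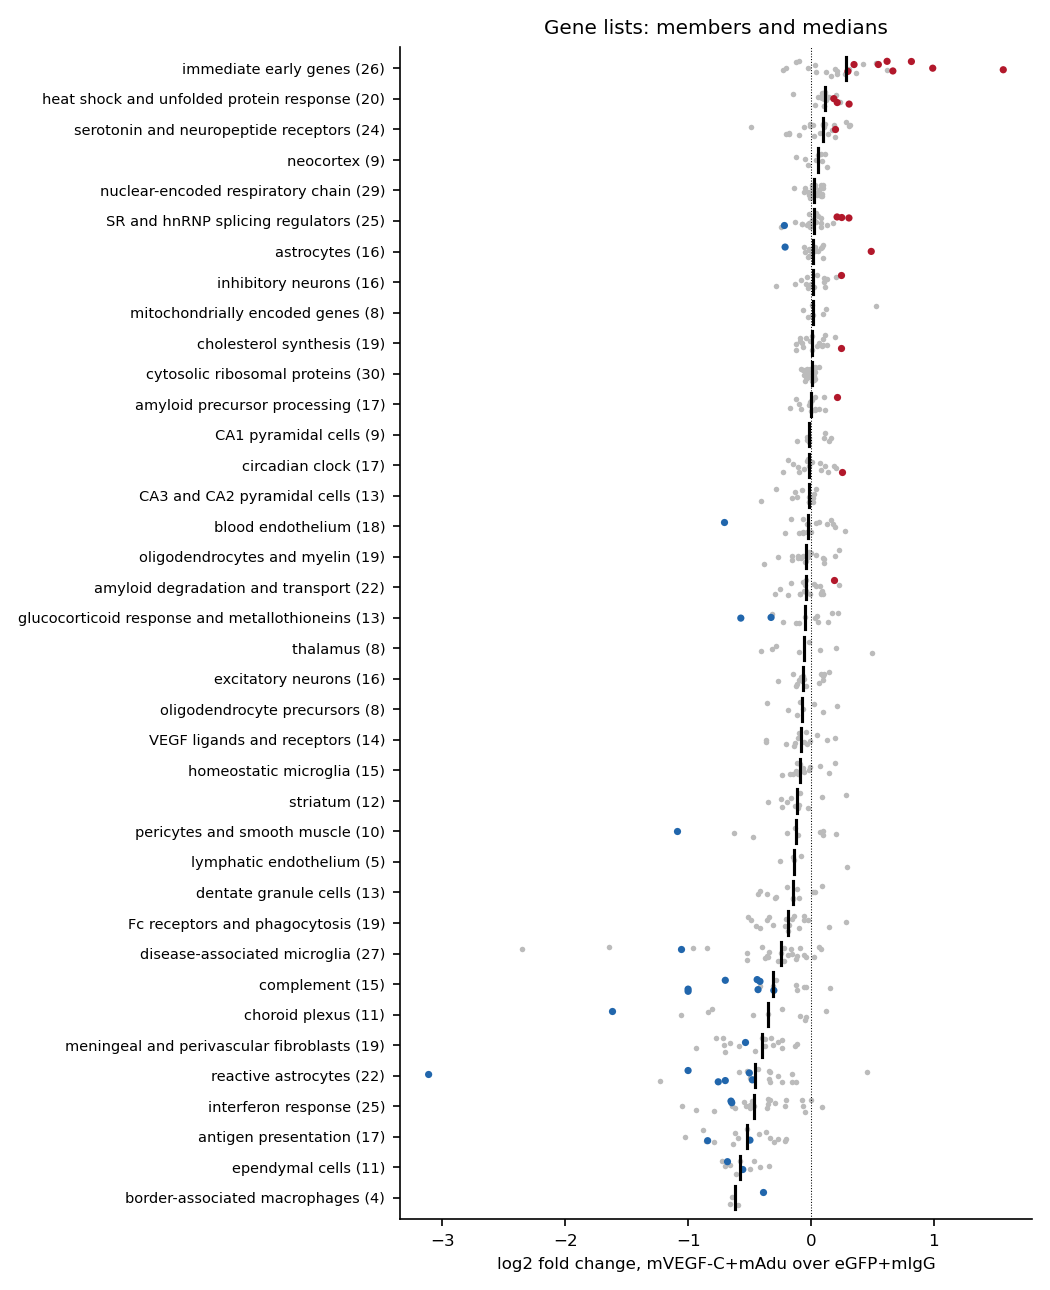
Log2 change in mVEGF-C+mAdu over eGFP+mIgG (x axis) of the measured genes of each list with at least 4 measured (y axis, number of genes in brackets), with 1 point per gene and a black bar at the median. Red points rose and blue points fell by the edgeR test. Immediate early genes stand at the top with a median of 0.29. The border-associated macrophage, ependymal, antigen presentation, interferon response and reactive astrocyte lists stand at the bottom, with medians from -0.62 to -0.45. The medians of the astrocyte, oligodendrocyte and myelin, and homeostatic microglia lists were 0.02, -0.04 and -0.09.

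The metallothioneins Mt1 and Mt2 fell, the 2 calls among 13 measured genes of the glucocorticoid response and metallothionein list. Of these 13, 6 had a positive and 7 a negative change, and the median was -0.05 (0.02 without mice 3, 6, 9 and 12). Mt1, which binds zinc and copper and responds to stress hormones, had 87.8, 92.3 and 86.2 CPM in mVEGF-C+mAdu mice, against 120.2, 102 and 111 CPM in eGFP+mIgG mice. Mt2, its neighbour with a similar sequence, had 29.8, 33.3 and 31.7 CPM in mVEGF-C+mAdu mice, against 54.5, 40.7 and 45.3 CPM in eGFP+mIgG mice. The groups were apart, with log2 changes of -0.32 ± 0.06 and -0.57 ± 0.12 (SE; edgeR quasi-likelihood test, adjusted p = 0.0173 and 0.0277). The other leading lower genes belong to no single list. Shisa7, an auxiliary subunit of GABA receptors, had 23.4, 22.5 and 22.5 CPM in mVEGF-C+mAdu mice, against 31.3, 30.5 and 30.7 CPM in eGFP+mIgG mice. Replicates of Shisa7 lay within 1 CPM of each other, and it was called in 6 of 6 fits that left out 1 mouse (log2 change -0.44 ± 0.06 SE). Wnt9a, a Wnt ligand, had 5.57, 5.66 and 6.24 CPM in mVEGF-C+mAdu mice, against 9.22, 10.8 and 9.84 CPM in eGFP+mIgG mice, a fall of 0.77. Rnase4, a secreted ribonuclease whose transcript shares exons with Ang, fell by 0.43, and Tgm2, which crosslinks proteins, by 0.51. Slc16a11, a transporter of monocarboxylates, fell by 0.73. Smaller falls, of 0.26 to 0.39, were found in Pitpnm2, Ajm1, Lmtk3 and Tab1.

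A few lower transcripts varied widely among the eGFP+mIgG mice. ENSMUSG00000045999, an identifier without a symbol in the annotation, had 108, 150 and 113 CPM in mVEGF-C+mAdu mice, against 91435, 91826 and 24414 CPM in eGFP+mIgG mice. It was the most extreme value of the comparison (log2 change -9.13 ± 0.83 SE, edgeR quasi-likelihood test, adjusted p = 0.000138), and mouse 8 of mVEGF-C+mIgG had 1037 CPM. Gm42418, a predicted gene known to collect ribosomal RNA reads and chosen after its values were seen, had 100.02, 134 and 104 CPM in mVEGF-C+mAdu mice, against 298, 283 and 132 CPM in eGFP+mIgG mice. Lars2, a mitochondrial tRNA synthetase gene that holds ribosomal RNA-like sequence and was likewise chosen, had 5.49, 8.93 and 5.51 CPM in mVEGF-C+mAdu mice, against 19.1, 18.1 and 9.46 CPM in eGFP+mIgG mice. In all 3, mice 1 and 2 were far above mouse 3. Mouse 3 overlapped the treated mice in Gm42418 and lay above them in the other two. Among 36 small nucleolar RNA genes the median was -0.54, and 2 fell. The part that ribosomal RNA reads play in the other calls was not tested.

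Genes of amyloid handling changed singly. App had 5238, 5507 and 5347 CPM in mVEGF-C+mAdu mice, against 5337, 5146 and 5225 CPM in eGFP+mIgG mice. These levels overlapped, and whether reads of the transgene count at App was not tested. Of 17 genes of amyloid precursor processing, Aph1b, a subunit of gamma-secretase, rose by 0.22 and the median was 0.0004 (-0.0023 without mice 3, 6, 9 and 12). Of 22 genes of amyloid degradation and transport, Ide, the insulin-degrading enzyme that also cleaves amyloid beta, rose and the median was -0.04 (-0.05 without mice 3, 6, 9 and 12). Ide had 79.6, 80.5 and 83.1 CPM in mVEGF-C+mAdu mice, against 70.4, 72.7 and 70.2 CPM in eGFP+mIgG mice. Its groups were apart, with a log2 change of 0.19 ± 0.04 (SE; edgeR quasi-likelihood test, adjusted p = 0.0258). Apoe, the lipid carrier and the main genetic risk factor for late Alzheimer disease, had 1281, 1314 and 1286 CPM in mVEGF-C+mAdu mice, against 1395, 1543 and 1398 CPM in eGFP+mIgG mice. Apoe was lower in every treated mouse than in any control, but did not pass (log2 change -0.16 ± 0.04 SE, edgeR quasi-likelihood test, adjusted p = 0.0582).

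Of 16 excitatory neuron, 9 CA1, 13 CA3 and CA2 and 13 dentate granule cell genes, edgeR's quasi-likelihood test called 0, with 5, 2, 0 and 7 at an unadjusted p under 0.05. DESeq2 called 0, 0, 0 and 2 of them and limma-voom 3, 2, 1 and 7. Their medians were -0.06, -0.01, -0.02 and -0.14, and -0.07, -0.03, -0.03 and -0.16 without mice 3, 6, 9 and 12. Of all 14881 genes, 3029 were at an unadjusted p under 0.05 by edgeR, while DESeq2 called 452 and limma-voom 2660. The dentate granule cell list ran from -0.10 to 0.01 in mVEGF-C+mAdu mice and from 0.12 to 0.14 in eGFP+mIgG mice in mean centred log2 CPM, without overlap. Oligodendrocyte and myelin genes had a median of -0.04 (-0.07 without mice 3, 6, 9 and 12) over 19 genes with 0 calls by edgeR or DESeq2 (3 at an unadjusted p under 0.05, and 6 called by limma-voom). Mobp, a myelin protein, had 509, 509 and 498 CPM in mVEGF-C+mAdu mice, against 456, 481 and 474 CPM in eGFP+mIgG mice, without overlap (log2 change 0.10 ± 0.06 SE, edgeR quasi-likelihood test, adjusted p = 0.362). Mbp, the other main myelin protein, had 1149.5, 1193 and 1142 CPM in mVEGF-C+mAdu mice, against 952, 1212 and 1074 CPM in eGFP+mIgG mice, and overlapped between the groups. Aqp4, the water channel of astrocyte endfeet, overlapped as well (log2 change 0.09 ± 0.07 SE). Medians of the 30 cytosolic ribosomal protein genes and of the 8 mitochondrially encoded genes were 0.01 and 0.02, and 0.01 and 0.05 without mice 3, 6, 9 and 12.

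Whether the combined group differed from the sum of its single treatments was asked with the interaction, the antibody's effect under mVEGF-C minus its effect under eGFP. In edgeR's test, 2 of 14881 genes passed (0.0134%), ENSMUSG00000045999 and Ide, and 1015 were at an unadjusted p under 0.05. DESeq2's Wald test called 8 genes for the interaction and limma-voom 220. The single treatments share the eGFP+mIgG mice with the combined comparison, so their values are given side by side only. mVEGF-C+mIgG against eGFP+mIgG had 6 calls (0.0403%) and eGFP+mAdu against eGFP+mIgG had 5 (0.0336%). mVEGF-C+mAdu against eGFP+mAdu had 7 calls (0.047%) and mVEGF-C+mAdu against mVEGF-C+mIgG had 31 (0.208%).

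Genes called in the combined comparison had different values in the single-treatment groups. Ppp1r3c averaged 93.4 ± 1.78 CPM in mVEGF-C+mAdu, 76.6 ± 3.16 in mVEGF-C+mIgG, 78.4 ± 2.73 in eGFP+mAdu and 66.5 ± 5.49 in eGFP+mIgG mice (SD, n = 3 each). Its log2 change over eGFP+mIgG was 0.49 in mVEGF-C+mAdu, 0.21 in mVEGF-C+mIgG and 0.24 in eGFP+mAdu, and its interaction was 0.05 ± 0.07 (SE). Hspa5 was alike, with 0.31 in mVEGF-C+mAdu, 0.13 in mVEGF-C+mIgG and 0.15 in eGFP+mAdu and an interaction of 0.03 ± 0.05 (SE). For both, the 2 single changes added up to nearly the combined one, and neither single change passed by edgeR's quasi-likelihood test. Fos changed by 0.99 in mVEGF-C+mAdu, 1.02 in mVEGF-C+mIgG and 0.22 in eGFP+mAdu, with an interaction of -0.24 ± 0.22 (SE). Its change in mVEGF-C+mIgG passed (edgeR quasi-likelihood test, adjusted p = 0.026). Vwf changed by -0.71 in mVEGF-C+mAdu, -0.54 in mVEGF-C+mIgG and -0.75 in eGFP+mAdu, and the last passed (edgeR quasi-likelihood test, adjusted p = 0.00257). Its interaction of 0.58 ± 0.14 (SE) did not pass (edgeR quasi-likelihood test, adjusted p = 0.398).

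The complement and MHC genes had another order. C3 averaged 4.96 ± 0.990 CPM in mVEGF-C+mAdu, 10.5 ± 2.81 in mVEGF-C+mIgG, 7.13 ± 0.581 in eGFP+mAdu and 9.92 ± 0.218 in eGFP+mIgG mice (SD, n = 3 each). The mVEGF-C+mIgG mice had about the control level but spread more widely. C3 was lower in mVEGF-C+mAdu than in mVEGF-C+mIgG, with a log2 difference of -1.08 ± 0.17 (SE; edgeR quasi-likelihood test, adjusted p = 0.0227). H2-K1 and C1qa were lower in that comparison too, with log2 differences of -0.70 ± 0.12 and -0.55 ± 0.10 (SE; edgeR quasi-likelihood test, adjusted p = 0.0227 and 0.0429). Their interactions were -0.61 ± 0.23 for C3, -0.60 ± 0.16 for H2-K1 and -0.47 ± 0.14 for C1qa (SE), and none of the 3 passed (edgeR quasi-likelihood test, adjusted p = 0.681, 0.472 and 0.591). Ttr was lower in mVEGF-C+mAdu than in eGFP+mAdu, with a log2 difference of -1.76 ± 0.24 (SE; edgeR quasi-likelihood test, adjusted p = 0.0176).

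Ide had its highest level in eGFP+mAdu mice. It averaged 81.0 ± 1.81 CPM in mVEGF-C+mAdu, 74.5 ± 2.97 in mVEGF-C+mIgG, 99.5 ± 0.862 in eGFP+mAdu and 71.1 ± 1.34 in eGFP+mIgG mice (SD, n = 3 each). Its log2 change over eGFP+mIgG was 0.19 in mVEGF-C+mAdu, 0.07 in mVEGF-C+mIgG and 0.48 in eGFP+mAdu. The interaction was -0.36 ± 0.05 (SE; edgeR quasi-likelihood test, adjusted p = 0.0405), so the combined group lay below the sum of the single changes. This call was lost in 6 of 6 fits that left out 1 of the compared mice. Ide lies on chromosome 19 (37268743 to 37337852, - strand, GRCm38), where Ppp1r3c and Btaf1, a regulator of TATA-binding protein chosen after its values were seen, lie close by and were also called higher. Btaf1 averaged 96.1 ± 1.49 CPM in mVEGF-C+mAdu, 88.6 ± 1.65 in mVEGF-C+mIgG, 112 ± 2.86 in eGFP+mAdu and 82.3 ± 2.35 in eGFP+mIgG mice (SD, n = 3 each). Btaf1 thus had the same order as Ide, and Ppp1r3c did not. The 3 eGFP+mAdu mice include mice 5 and 6, whose App was low. Ide had 98.8 CPM in mouse 4, against 99.2 and 100.4 CPM in mice 5 and 6. A fit without mice 5 and 6 leaves 1 mouse in eGFP+mAdu, so it cannot show whether the calls depend on them. The 2 genes called for the interaction kept their direction there. For Ide this says little, since mouse 4 had about the level of mice 5 and 6. The median size of the 2 interactions was 3.66 against 3.55 with all libraries. It is set mostly by ENSMUSG00000045999, whose interaction was 6.73 with all libraries, and does not describe Ide.

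The calls were sorted by GC content. The longest transcript of the genes called higher had a median GC of 42.1%, and that of the genes called lower 55.0%, against 49.7% over all genes tested. Across 14791 genes, which are not independent replicates, the Spearman correlation of the log2 change with GC was -0.40, and with length 0.11. The libraries differed the same way: genes in the fifth with the highest GC had median centred log2 CPM of -0.08, -0.01 and -0.04 in mVEGF-C+mAdu mice 10, 11 and 12, against 0.05, 0.05 and 0.02 in eGFP+mIgG mice 1, 2 and 3. Mouse 10 was the furthest. After each library was corrected for its trend with GC and length, an alternative chosen after seeing the data, 98 genes were called, 47 higher and 51 lower. Of the 324 genes called without the correction, 83 remained, and all 324 kept their direction. Among those kept were Ppp1r3c, Hspa5, Dio2, Fos, Egr2, C3, Lcn2, Vwf, Ttr and Mt1, and among those lost were Homer1, Ide, C1qa, C1qb, C1qc, C4b, H2-K1 and Lyz2. Among the complement, reactive astrocyte, interferon, antigen presentation and disease-associated microglia lists, the median of antigen presentation shifted most, at -0.46 with the correction and -0.52 without. Some other lists shifted more. The CA1 median was 0.09 with the correction and -0.01 without, that of mitochondrially encoded genes -0.08 and 0.02, and that of dentate granule cells -0.21 and -0.14.

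**Figure D5:**
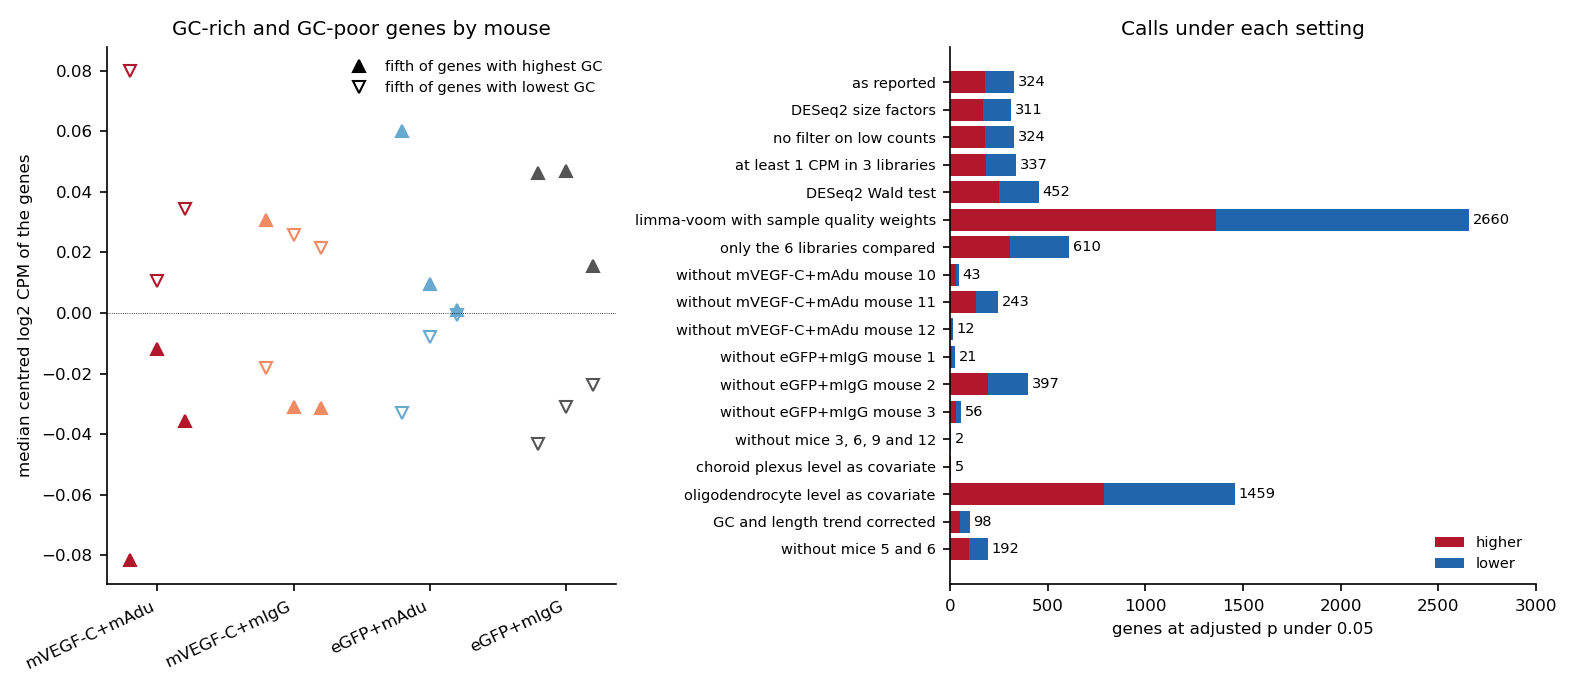
Left, median centred log2 CPM (y axis) of the fifth of genes with the highest GC (filled) and the lowest GC (open) in each mouse, with the groups along the x axis. Mouse 10 of mVEGF-C+mAdu lies furthest from 0, at -0.08 and 0.08. Right, number of genes called (x axis) under each setting, red higher and blue lower, from 2 without mice 3, 6, 9 and 12 to 2660 with limma-voom sample quality weights.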

How the data were processed

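RNA from 12 hippocampi was extracted with a PicoPure kit and amplified linearly before sequencing, per the labels' protocols. The authors deposited raw counts per gene for all 12 libraries in 1 table. The submitters' processing notes name the build mm10 and, with no role or version, STAR, Subread, featureCounts, FastQC, Trim Galore and edgeR; the annotation and strand use are not given in the sources used.

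The counts were fitted with edgeR 4.0.16 (R 4.3.3; TMM scaling, quasi-likelihood F test, two-sided, Benjamini-Hochberg over 14881 genes, threshold 0.05), with 1 mean per group over all 12 libraries. The filter on low counts removed 0 genes, and the lowest total of a gene was 147 reads. Levels are CPM on TMM-scaled library sizes, and centred list levels use log2 CPM with a prior count of 2. The labels give no animal numbers beyond the library numbers, which are used here as mouse numbers. Symbols for 14791 identifiers came from GENCODE M21 (GRCm38). The members and the 40 gene lists were chosen with earlier results of these data known. Named genes are the 15 higher and 15 lower with the smallest p, up to 4 called genes of each list, and 24 genes set by name. The values of 1 gene among the named genes are not reported here. On simulated counts with 200 changed genes among 14881, the fit recovered 49.5%, 82% and 95% at 1.25-, 1.5- and 2-fold. It also called 9, 11 and 18 unchanged genes. The simulated libraries were independent of each other, which was not tested for mice 3, 6, 9 and 12. Alternatives were DESeq2 1.42.0 (size factors, Wald test), limma 3.58.1 (voom with sample quality weights), other filters, 6 libraries only, leaving out mice, cell type covariates and a correction for GC content and length; the last, and leaving out mice 5 and 6, were chosen after seeing the data.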

Additional observations from a re-analysis of the deposited data

Results flagged for a closer look

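The interaction of vector and antibody, the antibody's effect under mVEGF-C minus its effect under eGFP, passed the quasi-likelihood test of edgeR, after Benjamini-Hochberg adjustment, for Ide and for ENSMUSG00000045999. The call of Ide was lost in 6 of 6 fits that left out 1 of the compared mice, and that of ENSMUSG00000045999 in 5 of 6, all but the fit without mouse 3. For Ide it was -0.36 on the log2 scale: the antibody's effect was 0.12 under mVEGF-C and 0.48 under eGFP. All 3 eGFP+mAdu mice were above all mice of the other groups, with 81.0 ± 1.81 CPM in mVEGF-C+mAdu, 74.5 ± 2.97 CPM in mVEGF-C+mIgG, 99.5 ± 0.862 CPM in eGFP+mAdu and 71.1 ± 1.34 CPM in eGFP+mIgG mice (SD, n = 3 each). For ENSMUSG00000045999 it was 6.73. This value is set by mice 1, 2 and 3 of eGFP+mIgG, at 91435, 91826 and 24414 CPM, while the other 9 mice had 108 to 1037 CPM.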

How the results depend on the processing

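In mVEGF-C+mAdu against eGFP+mIgG, all 324 genes kept their direction under every alternative run. For the fits that left out mice this was nearly fixed in advance, since the groups of 322 genes did not overlap. The count of calls moved. It was 2660 (1360 higher, 1300 lower) by limma-voom with sample quality weights, 610 (306 and 304) with only the 6 compared libraries and 1459 (789 and 670) with the oligodendrocyte level as a covariate. It was 5 (4 and 1) with choroid plexus as a covariate, 2 (0 and 2) without mice 3, 6, 9 and 12, 98 (47 and 51) with the GC and length correction and 192 (95 and 97) without mice 5 and 6. Leaving out 1 compared mouse gave 12 to 397 calls (9 to 191 higher, 3 to 206 lower), with 43, 12, 21 and 56 without mice 10, 12, 1 and 3. DESeq2's Wald test gave 452 (250 and 202), and its size factors 311. The interaction count, 2, was 8 by DESeq2's Wald test, 220 by limma-voom and 22 with the oligodendrocyte covariate. It was 3 with at least 1 CPM in 3 libraries and 0 to 2 leaving out 1 mouse. It was 0 without mice 3, 6, 9 and 12 and with the choroid plexus covariate (248 and 675 at an unadjusted p under 0.05 by edgeR). The fit without mice 5 and 6 leaves 1 eGFP+mAdu mouse, so its interaction count is not given, and the 2 interactions kept their direction. The cause of these moves in the counts was not tested. The sample quality weights of limma-voom were 2.13 to 2.92 for mice 3, 6, 9 and 12 and 0.419 to 0.78 for the others. Its calls thus leaned most on the mice whose independence was not tested. Among the named genes, P2ry12 turned to -0.018 with the GC correction, Cldn5 to 0.0016 by limma-voom, 0.062 with the GC correction and between -0.083 and 0.026 leaving out 1 mouse, the highest without mouse 11, and App to -0.051 with the oligodendrocyte covariate. Of the other values of named genes, 961 kept direction and call, 370 lost the call and 20 gained one. No paired analysis was possible because the groups share no replicate numbers. Nothing in the labels says how the 3 mice of a group were housed or processed together, so p-values measure the spread between these libraries only. Genes near 1 CPM, such as Lcn2, rest on few reads.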
